A study of Mus musculus with 16 samples.

Results

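Cdkn1a-high and Cdkn1a-low cells are the upper and lower ends of the spread of 1 gene among the control cells of a mouse colon tumour organoid culture. Of 3618 control barcodes, 2544 had at least 1000 genes, at least 5000 unique molecular identifiers (UMIs, tags that count single RNA molecules) and at most 20% mitochondrial UMIs. These cells were ranked by their Cdkn1a UMIs as a share of all UMIs of the cell. The top 25% (636 cells, Cdkn1a-high) were set against the bottom 25% (636 cells, Cdkn1a-low), 1272 cells in all out of 5696 barcodes in the series. The measured Cdkn1a level therefore chose the cells, and every Cdkn1a value below is a description of that choice. Cdkn1a itself was left out of every count of genes.

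The cells came from organoids grown from colon tumours that azoxymethane and dextran sulfate sodium (AOM/DSS) induce in mice, at passage 14. The controls were KMT9 wild type (KMT9wt/wt) and labelled minus TAM. The comparison library was the KMT9 knockout (KMT9ko/ko) of the same organoid type, labelled plus TAM, so genotype and TAM cannot be told apart. Each group has 8 records but 1 matrix, whose columns do not name a record. The records were taken as parts of 1 library, so no comparison here has replicates. Cells of 1 library share their culture and handling and are not replicates, and no p-value was computed. The 95% intervals are exact ones that reflect the counting of UMIs and nothing else.

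Cdkn1a encodes p21, a protein that binds and inhibits cyclin-dependent kinases and holds cells before S phase and mitosis. Its best known activator is the transcription factor p53, which after damage or other stress also switches on feedback inhibitors such as Mdm2, death genes such as Bbc3 and Bax, and the secreted factor Gdf15. In the intestinal epithelium p21 is best known from cells that leave the dividing crypt base and mature, while p53 can induce it in damaged cells at any stage. The genes that rise in late division carry short promoter elements, CCAAT boxes and the cell cycle genes homology region, through which p21 is known to act to lower them.

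The promoters of genes on both sides of that circuit are shown because the comparison turned on these gene groups. They were chosen after the values had been seen. Apart from Cdkn1a, only list members whose promoter held a match to the p53 or TTTGAA element described next could be shown. Each is the 250 bases before a transcription start in RefSeq on GRCm38.p6, 5′ to 3′ on the strand of the gene. In the first 4, capitals mark matches to the p53 consensus decamer, which occurs in pairs in p53 response elements. In the last 2, capitals mark TTTGAA, the core of the cell cycle genes homology region, and CCAAT, both on either strand. The intervals are chr17:29090729-29090978 (plus strand) for Cdkn1a, chr10:117710759-117711008 (minus) for Mdm2, chr11:40755287-40755536 (minus) for Ccng1, chr8:22185820-22186069 (minus) for Ckap2, chr2:164769679-164769928 (plus) for Ube2c and chr4:118437344-118437593 (minus) for Cdc20.
Cdkn1a: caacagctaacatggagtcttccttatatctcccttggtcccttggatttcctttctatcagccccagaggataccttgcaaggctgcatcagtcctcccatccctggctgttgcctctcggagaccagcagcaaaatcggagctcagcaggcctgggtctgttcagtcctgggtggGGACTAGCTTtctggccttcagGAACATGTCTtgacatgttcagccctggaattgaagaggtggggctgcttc
Mdm2: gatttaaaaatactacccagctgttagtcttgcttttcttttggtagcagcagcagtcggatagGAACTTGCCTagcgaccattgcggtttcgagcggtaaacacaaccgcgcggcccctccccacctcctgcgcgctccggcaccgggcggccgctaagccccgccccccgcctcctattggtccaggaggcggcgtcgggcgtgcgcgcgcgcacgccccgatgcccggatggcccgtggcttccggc
Ccng1: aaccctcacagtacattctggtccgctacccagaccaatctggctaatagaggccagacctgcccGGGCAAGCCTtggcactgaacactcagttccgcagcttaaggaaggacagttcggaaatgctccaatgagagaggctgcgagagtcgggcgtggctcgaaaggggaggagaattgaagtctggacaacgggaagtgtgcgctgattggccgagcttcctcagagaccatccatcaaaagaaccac
Ckap2: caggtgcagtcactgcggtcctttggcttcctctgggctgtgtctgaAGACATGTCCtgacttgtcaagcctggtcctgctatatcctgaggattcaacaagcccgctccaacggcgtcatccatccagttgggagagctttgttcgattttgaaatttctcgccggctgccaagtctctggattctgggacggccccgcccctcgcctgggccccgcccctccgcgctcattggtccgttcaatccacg
Ube2c: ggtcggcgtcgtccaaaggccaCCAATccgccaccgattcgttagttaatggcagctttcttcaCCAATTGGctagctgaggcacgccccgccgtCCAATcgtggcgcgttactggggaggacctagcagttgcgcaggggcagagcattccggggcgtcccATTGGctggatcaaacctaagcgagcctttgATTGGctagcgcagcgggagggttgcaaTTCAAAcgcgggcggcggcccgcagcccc
Cdc20: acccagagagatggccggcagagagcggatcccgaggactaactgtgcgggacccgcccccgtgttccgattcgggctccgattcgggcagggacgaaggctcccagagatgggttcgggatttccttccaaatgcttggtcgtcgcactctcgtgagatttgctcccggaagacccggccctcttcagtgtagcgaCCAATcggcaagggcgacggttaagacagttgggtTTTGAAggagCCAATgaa

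The Cdkn1a window held 2 p53 decamers, which begin 73 and 51 bases before the start. A second Cdkn1a start in RefSeq, with the window chr17:29093519-29093768, had none in that window. The 2 decamers of the first window lie upstream of this second start. Among 32851 RefSeq promoters, 7.13% held a p53 decamer, against 12 of 51 promoters (23.5%) of the p53 targets measured below. TTTGAA stood in 15.99% of all promoters and in 15 of 40 (37.5%) of the G2 and M phase genes. CCAAT stood in 33.8% of all, in 32 of 40 (80%) of the G2 and M phase genes and in 24 of 41 (58.5%) of the S phase genes. Ckap2, which is on both the p53 and the G2 and M phase list, held 1 match to each of the 3. A match describes letters in a window and does not show binding.

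Cdkn1a (ENSMUSG00000023067, chr17:29090976-29100727, plus strand of mm10) was present in most cells at graded levels. The ranked cells were cut into 4 bins of 25%, of which bin 1 is the Cdkn1a-low and bin 4 the Cdkn1a-high group. Levels are given as CPM, the UMIs of a gene summed over the cells of a bin and scaled to the total of those cells. Cdkn1a was at 158 CPM in bin 1, 414 in bin 2, 725 in bin 3 and 1411 in bin 4. The median cell held 3, 10, 20 and 37 Cdkn1a UMIs in these bins. No Cdkn1a UMI was found in 72 cells, whose median depth was 15060 UMIs. The ranking had no gap at either edge. The last cell in bin 1 had 286.6 CPM (12 of 41868 UMIs), as did the first one above it (6 of 20933). The last cell below bin 4 had 932.5 CPM and the first one inside it 932.7.

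**Figure D1:**
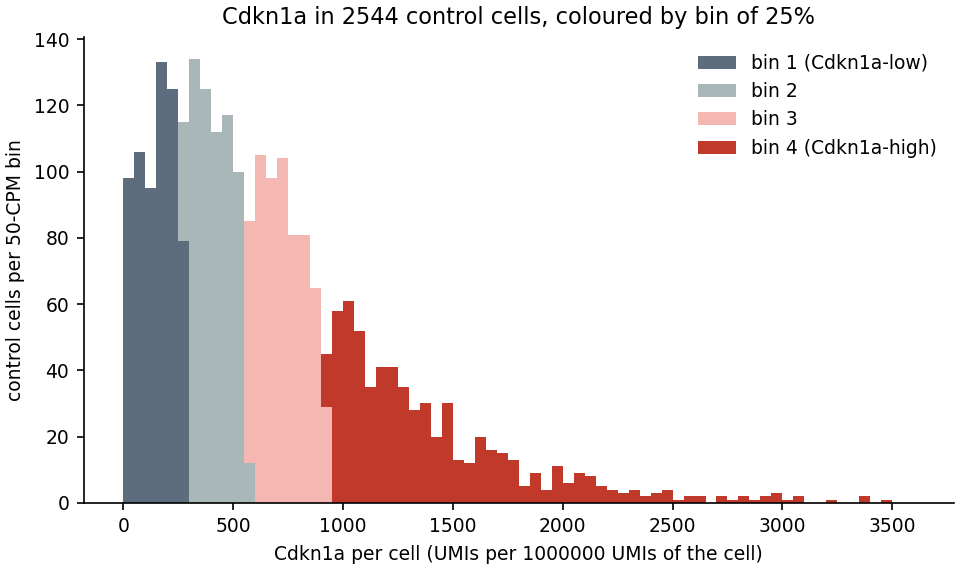
Number of control cells (vertical axis) by Cdkn1a level per cell in CPM (horizontal axis), in steps of 50 CPM, coloured by bin. The distribution is continuous with a long upper tail to 3476 CPM, and bin 1 ends at 286.6 CPM while bin 4 begins at 932.7 CPM.

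High cells were also deeper. Median UMIs per cell were 20679, 24992, 28104 and 28280 from bin 1 to bin 4, and median genes per cell 4468, 4885, 5115 and 5216. The mitochondrial share went the other way, from a median of 3.07% to 2.74%. High and low cells were therefore also taken within each of 5 bins of cells by depth, which gave median depths of 25461 and 25254 UMIs. In that selection 359 genes (4.64%) were at least 1.5-fold higher in high cells and 111 (1.43%) lower, and 25 of 41 measured p53 targets, described below, were higher with a median log2 ratio of 0.77. Both matrices share 498 barcodes, 171 of them among the kept control cells (18 in low and 57 in high cells), and whether these are the same cells was not tested. Epithelial genes were present throughout, with all 15 listed markers detected and a summed level of 13779 CPM in low and 15254 CPM in high cells. Of 15 immune markers 9 had no UMI, Cd3e, Lyz2 and Adgre1 among them, and the summed level was 61.7 CPM in low and 49.2 CPM in high cells. Of 14 fibroblast and endothelial markers 8 had none, including Col1a1 and Dcn, with sums of 14.9 and 11.3 CPM. N6amt1, the gene that encodes the catalytic subunit of KMT9, stood at 31.4 to 38.0 CPM in the control bins and at 6.10 and 5.63 CPM in the low and high knockout cells.

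Across 7785 genes with at least 10 CPM in either group, 433 (5.56%) were at least 1.5-fold higher in Cdkn1a-high cells and 286 (3.67%) at least 1.5-fold lower. The median gene differed by 0.014 on the log2 scale. A gene under 10 CPM in 1 group was measured through the other group alone, which favours a large ratio. Ak1, Polk, Gtse1, Eda2r, Cdkn2d, Cdkn3, Krt90 and Krt17, named below, were measured through the high cells alone. Ceacam10, also named below, was measured through the low cells alone. The shares over all genes carry the same filter. Throughout, "higher" and "lower" mean past 1.5-fold, which is a size and not a test. Of the 433 higher genes, 343 rose at each step from bin 1 to bin 4, and 211 of the 286 lower genes fell at each step. Among all measured genes, 1310 rose and 1166 fell at each step. The groups that stood out among the higher genes were p53 targets and genes of dividing cells.

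Known p53 targets were higher together with Cdkn1a. Of 53 on the list, Cdkn1a not included, 42 were measured, 29 were higher and 0 lower, beside 5.56% higher among all genes. Their median log2 ratio was 0.84. Only Xpc, a DNA damage sensor, had a ratio below 0 among the 42 (21.7 CPM in low and 20.2 in high cells). Of the other members Ptprv was not in the gene table and 10 did not reach 10 CPM in either group. The median rose by steps, at 0.37, 0.59 and 0.84 above bin 1 in bins 2, 3 and 4, and 31 of the 42 rose at every step.

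Among feedback regulators of p53, 6 of 8 measured members were higher. Mdm2, the ubiquitin ligase that degrades p53, stood at 58.6, 81.0, 117 and 210 CPM from bin 1 to bin 4, a log2 ratio of high over low of 1.84 (1.74 to 1.95). At an equal depth of 5000 UMIs per cell, 56.3% of high cells (52.3 to 60.2) and 24.5% of low cells (21.2 to 28.1) had an Mdm2 UMI, against 93.9% and 67.3% unthinned. Neither group had a cell with a thinned UMI of Ptprc, a leukocyte gene that epithelium lacks. Ccng1, which directs a phosphatase to Mdm2, was at 128, 192, 227 and 271 CPM, a ratio of 1.08 (1.0 to 1.16). Trp53inp1, a p53 cofactor, rose from 22.8 to 58.8 CPM, and Zmat3, an RNA-binding protein, from 41.8 to 79.1 CPM. Rchy1 and Wrap53 did not reach 1.5-fold, with log2 ratios of 0.43 and 0.16. Trp53 itself, whose activity is known to be set mostly at the protein level, did not reach 1.5-fold, at 300.4 CPM in low and 386 CPM in high cells (0.36, 0.31 to 0.42).

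The death genes gave 9 higher of 12 measured. Bbc3, which encodes the BH3-only killer PUMA, was at 55.0, 77.8, 117 and 184 CPM (1.74, 1.63 to 1.85). Phlda3, an inhibitor of AKT signalling, was at 191, 332, 455 and 588 CPM (1.62, 1.56 to 1.69). Each rose at every step, and neither rested on a few cells, since the 5 cells with most UMIs held 4.36% of the Bbc3 and 3.18% of the Phlda3 UMIs of the high group. Perp, a membrane protein of desmosomes, went from 173 to 352 CPM, the death receptor gene Tnfrsf10b from 14.2 to 31.9 CPM and Eda2r from 7.56 to 18.1 CPM. Bax, the pore former downstream of PUMA, was below 1.5-fold in log2 terms at 0.53 (572 to 827 CPM), as were Ei24 at 0.49 and Rps27l at 0.48. Fas did not reach the 10 CPM minimum (2.64 and 9.10 CPM).

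Arrest and checkpoint genes gave 7 higher of 10. Sesn2, a brake on growth signalling, was at 10.5, 15.6, 24.4 and 39.3 CPM (1.90, 1.64 to 2.16). The kinase gene Plk2 rose from 236 to 425 CPM, the antiproliferative gene Btg2 from 257 to 402 CPM and Sfn, a 14-3-3 protein that holds G2 cells, from 53.9 to 95.1 CPM. Gadd45a and Ddit4 did not reach 1.5-fold, at 0.33 and 0.42. Gtse1 (3.96 to 32.1 CPM, 3.02) and Psrc1 (20.8 to 61.0 CPM, 1.55), also counted in this role, belong to the mitotic list as well.

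Of the secreted and metabolic targets 5 of 9 were higher, and of 3 measured repair genes 2, Polk (4.58 to 16.6 CPM) and Ercc5 (11.4 to 23.1 CPM). Gdf15, a secreted stress factor, was at 236, 317, 453 and 721 CPM (1.61, 1.56 to 1.67). Ak1, a kinase that balances adenine nucleotides, rose from 1.73 to 13.2 CPM, and like Polk it was measured through the high cells alone. Thbs1 and Abhd4 stayed near 0 at log2 ratios of 0.037 and 0.091. Without Ckap2, Gtse1 and Psrc1, the 3 members that are also cell cycle genes, the list kept a median of 0.82 with 26 of 39 higher, a check added after the data were seen.

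**Figure D2:**
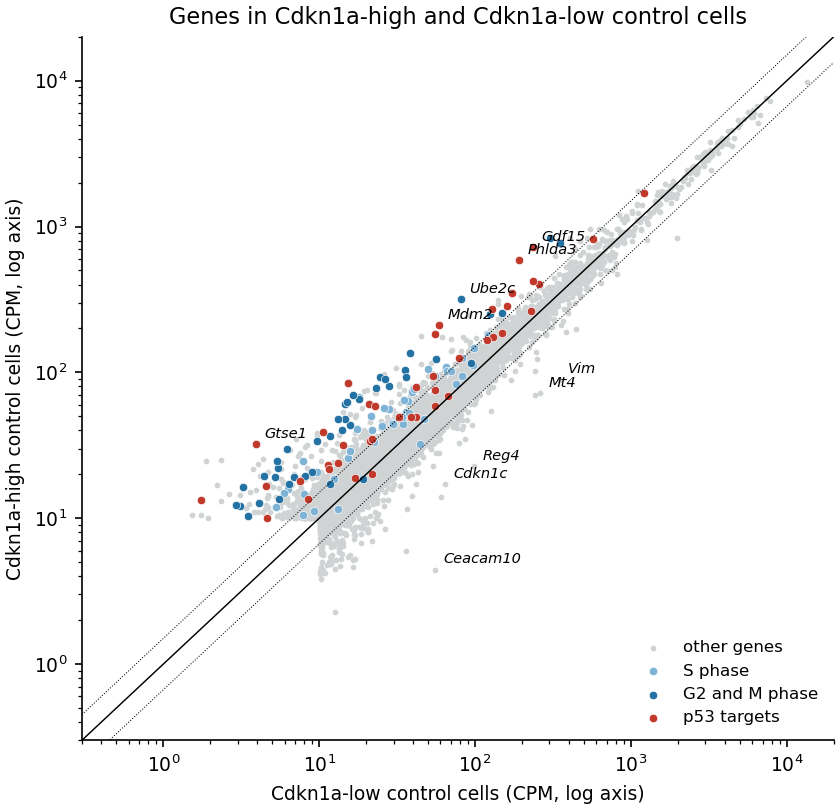
Each point is a measured gene, with its CPM in Cdkn1a-low (horizontal, log axis) and Cdkn1a-high control cells (vertical, log axis), and dotted lines mark 1.5-fold. Of the red p53 targets 29 of 42 lie above the upper line, as do 41 of 44 G2 and M phase genes in dark blue and 26 of 44 S phase genes in light blue, while Ceacam10, Reg4, Vim, Mt4 and Cdkn1c lie below the lower line.

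Genes of late division were also higher in cells rich in the inhibitor. Of 45 G2 and M phase genes 44 were measured, 41 were higher and 0 lower, with a median log2 ratio of 1.68. That stood beside 5.56% higher and 3.67% lower among all genes. Within 5 bins of depth 41 of 43 measured were higher and 0 lower, with a median of 1.52. Ube2c, which loads ubiquitin for the anaphase-promoting complex, was at 80.7, 96.9, 195 and 319 CPM (1.98, 1.89 to 2.07). Cdk1, the kinase that drives mitosis, was at 45.2, 59.1, 104 and 178 CPM (1.98, 1.85 to 2.10), and its partner Ccnb1 at 20.2, 21.2, 46.3 and 75.4 CPM (1.90). The first step was small and the later ones were large: the list stood 0.23, 1.03 and 1.68 above bin 1. Mki67 went from 11.8 to 36.5 CPM and Top2a from 36.0 to 92.7 CPM, while Anp32e, Ckap5 and Bora did not reach 1.5-fold, with log2 ratios of 0.30, 0.54 and -0.031. Of the 12 genes with the highest ratios among those of 50 CPM or more, 11 act in division or DNA synthesis (Ckap2, Racgap1, Tpx2, Nusap1, Ube2c, Cdk1, Ccna2, Pbk, Cdc20, Ccnb1 and Rrm2), and the other was Glipr1 (19.5 to 74.2 CPM). Nusap1, Ube2c, Ccna2, Cdc20 and Glipr1 each overlap exons of another gene on the opposite strand.

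S phase genes followed with smaller ratios. Of 48 listed 44 were measured, 26 were higher and 0 lower, with a median of 0.69, beside 5.56% higher and 3.67% lower among all genes. Within 5 bins of depth 21 of 44 were higher and 1 lower, with a median of 0.58. Rrm2, the ribonucleotide reductase subunit, rose from 18.0 to 67.3 CPM (1.90) and Pcna, the sliding clamp, from 82.0 to 125 CPM (0.61, 0.51 to 0.72). The helicase genes Mcm2 and Mcm6 reached 0.13 and 0.23 only. Ung, which removes uracil from DNA, went down without reaching 1.5-fold (44.2 to 32.2 CPM, -0.46).

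The G2 and M phase difference was widest in the upper tail of cells. The G2 and M phase genes took a median of 0.0909% of the UMIs of a low cell and 0.135% of a high cell, but at the 90th percentile 0.216% and 1.06%. Among all 2544 cells, the 254 with the highest G2 and M phase share (0.804% or more) numbered 21, 33, 72 and 128 from bin 1 to bin 4. That was 3.30% of low cells (2.06 to 5.0) and 20.1% of high cells (17.1 to 23.5). Those 254 cells had 1107 CPM of Cdkn1a and the others 663 CPM. The edge was not sharp, since 96 cells had a share within 10% of it. The 254 cells with the highest S phase share were spread as 37, 54, 63 and 100 cells, with 928 against 691 CPM of Cdkn1a. The S phase share differed across the range, with medians of 0.0841% and 0.179% and 90th percentiles of 0.377% and 0.614% in low and high cells.

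The other cyclin-dependent kinase inhibitors did not move as a block. Cdkn1c, which encodes p57, ran opposite to Cdkn1a, at 64.3, 34.5, 24.2 and 17.1 CPM (-1.91, -2.10 to -1.73). It fell at every step, and 16.4% of low cells against 4.56% of high cells had a Cdkn1c UMI at 5000 UMIs per cell. Cdkn1b, which encodes p27, was under the minimum and nearly level at 6.59 and 6.78 CPM. The INK4 gene Cdkn2d rose from 8.74 to 19.6 CPM, and Cdkn2a and Cdkn2b did not reach 1.5-fold at 0.52 and 0.33. Cdkn3, a phosphatase gene of late division listed with them, rose from 5.69 to 18.5 CPM. Cdkn1c overlaps the predicted gene Gm44732 on the opposite strand, and the sources used here do not give whether counting used strand.

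**Figure D3:**
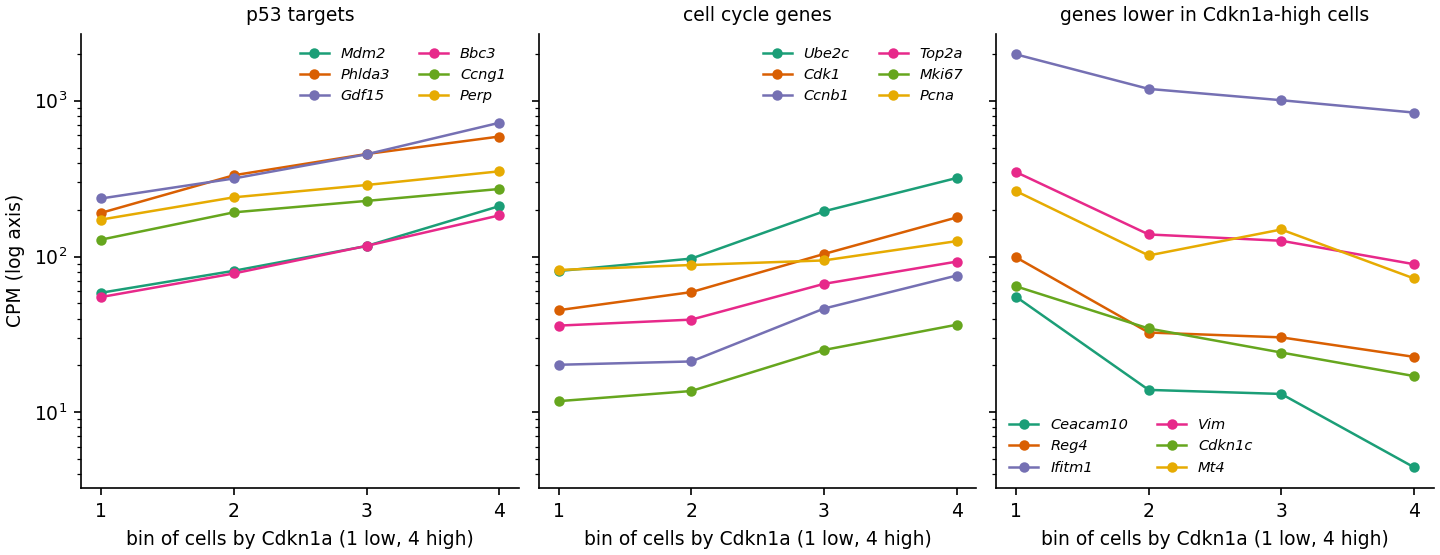
CPM (vertical, log axis) in the 4 bins of control cells from low to high Cdkn1a (horizontal), for 6 p53 targets, 6 cell cycle genes and 6 genes that were lower in high cells. Mdm2, Phlda3 and Gdf15 rise at each step, Ube2c and Ccnb1 rise mainly after bin 2, and Reg4 and Ceacam10 drop most at the first step.

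Genes with the lowest ratios were of mixed kind, and several were carried by few cells. Ceacam10, an adhesion molecule gene, was at 55.1, 13.9, 13.1 and 4.45 CPM (-3.63, -3.97 to -3.31), and 5 of the low cells held 51.3% of its 794 UMIs there. Reg4, a secretory lineage gene, went from 98.7 to 22.7 CPM (-2.12), and 5 low cells held 40.9% of the UMIs of the low group. At 5000 UMIs per cell 10.8% of low (8.54 to 13.5) and 7.08% of high cells (5.21 to 9.35) had a Reg4 UMI. Unthinned, at unequal depth, the shares were 17.1% and 15.4%. Vim, the intermediate filament vimentin, went from 348 to 89.3 CPM. Vim was detected more broadly, in 36.9% of low and 19.5% of high cells at 5000 UMIs. The metallothionein genes Mt4 (263 to 72.4 CPM) and Mt3 (241 to 70.3 CPM) followed, with Ptgds, Tesc, Slc30a2, Ifitm1 (1981 to 839 CPM) and Prox1. Slc30a2 transports zinc and Ifitm1 is a membrane protein tied to interferon and Wnt responses.

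Few stem cell and Wnt genes passed 1.5-fold. Of 16 measured stem cell genes 2 were lower and 1 higher (median -0.24), beside 3.67% lower among all genes, and of 16 Wnt targets 3 were lower and 1 higher (median -0.28). Smoc2, a stem cell marker, went from 249 to 123 CPM (-1.02, -1.10 to -0.95) and the Wnt inhibitor genes Wif1 and Notum from 442 to 198 CPM and from 354 to 210 CPM. Cd44, an adhesion receptor on both lists, was the higher one (45.7 to 70.2 CPM). Lgr5 was under the minimum at 5.97 and 4.39 CPM, and Ascl2 did not reach 1.5-fold (137 to 104 CPM). Within 5 bins of depth 0 stem cell genes were past 1.5-fold in either direction (median -0.15) and 1 Wnt target was lower. Within clusters 0 Wnt targets (median -0.13) and 1 stem cell gene (median -0.13) were lower, beside 0.586% among all genes. In the cells low in cell cycle UMIs, described below, 3 of 16 stem cell genes were lower and 1 higher (median -0.24). Of 16 Wnt targets measured there 3 were lower and 2 higher (median -0.20), beside 4.3% lower and 3.35% higher among all genes.

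Differentiation genes had directions that depended on the list and on how the cells were selected. Of 15 measured colonocyte genes 4 were higher and 0 lower, with a median of 0.27, beside 5.56% higher and 3.67% lower among all genes. Klf4, a transcription factor of maturing colonocytes, was at 196, 231, 257 and 334 CPM (0.77, 0.70 to 0.83), while Krt20, the classical marker of the mature surface, was under the minimum at 4.58 and 4.50 CPM. Car1, a carbonic anhydrase of colonocytes, had a ratio of 1.49, but 5 cells held 93.6% of its 1910 UMIs in the high group, and its ratio was -0.060 when cells were taken within 5 bins of depth. Squamous and cornified genes had 7 higher of 13 (median 0.59), among them Krt90 (5.69 to 24.2 CPM) and Krt17 (8.81 to 26.6 CPM). In the high group 5 cells held 40.2% of the Krt90 and 44.9% of the Krt17 UMIs. The squamous median was -0.030 within bins of depth. Of 8 goblet and secretory genes 2 were higher and 2 lower. The fetal-like and YAP list had 6 higher and 1 lower of 22, with the growth factor gene Areg at 409, 651, 751 and 840 CPM. Within bins of depth the fetal-like and YAP list had 3 higher and 3 lower (median 0.033), and the colonocyte list 1 and 1 (median 0.061). In the cells low in cell cycle UMIs, described below, 6 of 16 colonocyte (median 0.50) and 7 of 13 squamous genes (0.80) were higher. There 0 were lower, beside 3.35% higher and 4.3% lower among all genes. In the knockout 7 of 18 (0.44) and 9 of 16 (0.76) were higher and 0 lower, beside 3.8% and 2.79%. Goblet and secretory genes went both ways in both. With barcodes found in both matrices left out of the knockout, 3 of 16 colonocyte (0.23) and 6 of 14 squamous genes (0.45) were higher. There 0 were lower, beside 3.44% higher and 2.1% lower among all genes. Of 4 goblet and secretory genes measured there, 0 were higher and 3 lower (median -1.73). Within clusters the colonocyte and squamous medians were 0.16 and 0.089.

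Clusters built without Cdkn1a placed the extremes. At resolution 0.8 there were 10 clusters, numbered from the highest Cdkn1a CPM down. Cluster 1 (493 cells) was led by Hmmr, Nusap1, Ccnb1, Esco2 and Aurkb, and cycling-like describes it from those markers. It had 1037 CPM of Cdkn1a, 47.7% of its cells (43.2 to 52.2) were high and 8.72% low, and it supplied 36.9% of all high cells and 6.76% of all low cells. Its median depth was 30818 UMIs, above the 25278 UMIs of all control cells. Of the 171 kept control cells with a barcode found in both matrices, 83 were in cluster 1. The other end was cluster 9 (218 cells), led by Ang4, Tff3, Reg4 and Igfbp1, with 385 CPM, 8.26% high and 57.3% low cells (50.5 to 64.0), and a median depth of 16374 UMIs. Cluster 8 (Prss56, Pnliprp2, Svopl) had 6.19% high and 53.1% low cells, and cluster 7 (Msx1, Prox1, Htra1) 9.16% and 40.8%. Clusters 2 to 5, led by Plat, Pgf, Krt6a and Cyp2c55, held both extremes, with 22.4% to 30.2% high and 17.7% to 24.9% low cells. Cluster 6 (Cav1, Ccl20, Clca3b) had 13.8% high and 25.8% low cells, and cluster 10 was only 5 cells.

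**Figure D4:**
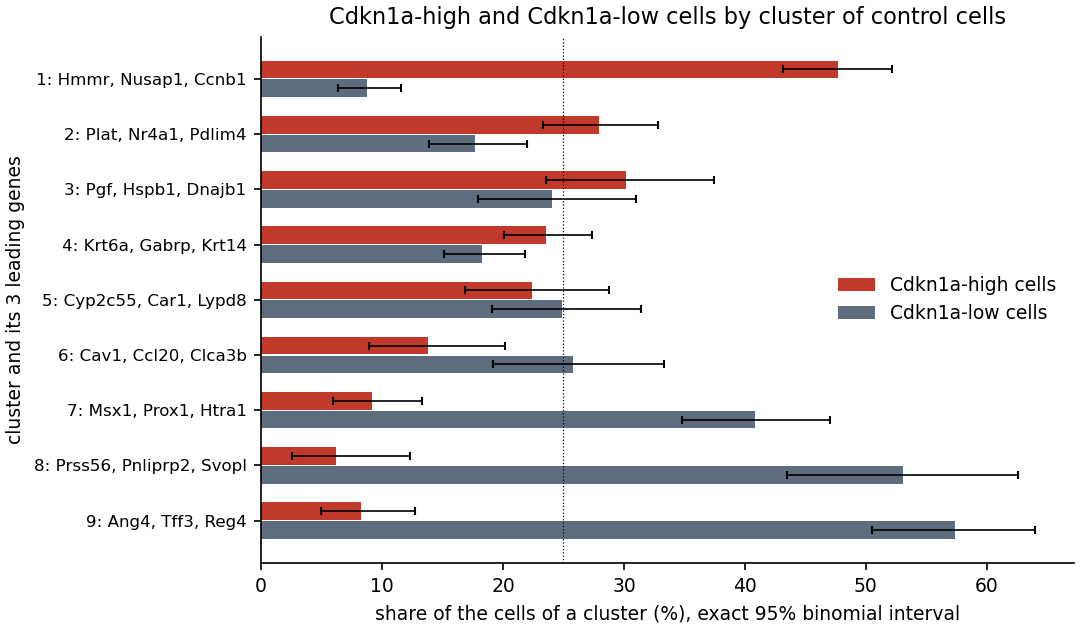
Share of cells of each cluster with at least 100 cells (vertical axis, with its 3 leading genes) that were Cdkn1a-high (red) or Cdkn1a-low (grey), with exact binomial intervals and a dotted line at 25%. Cluster 1 has 47.7% high cells, and clusters 7, 8 and 9 have 40.8% to 57.3% low cells.

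The comparison was repeated among cells of like cell cycle content or like cluster. Among the 1272 control cells with the smallest share of S, G2 and M phase UMIs, the top and bottom 25% (318 cells each) had 1274 and 119 CPM of Cdkn1a. The p53 targets kept a median of 0.75 with 23 of 39 measured higher and 0 lower, beside 3.35% higher and 4.3% lower among all genes in that selection. The S phase median was -0.21 over 22 measured genes with 0 higher, and only 9 G2 and M phase genes were measured, with a median of -0.036. Since these cells were chosen by those same S, G2 and M phase genes, the latter values describe the selection. Mdm2 was at 61.7 CPM in low and 167 CPM in high cells there (1.44), Phlda3 at 175 and 499.7 CPM (1.52), and Cdkn1c remained lower in high cells (-1.36).

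With high and low cells taken inside each cluster and then summed (632 cells each, 1360 and 210.1 CPM of Cdkn1a), 131 genes (1.7%) were higher and 45 (0.586%) lower. Of 41 measured p53 targets 22 were among the higher and 0 among the lower, with a median of 0.60. The G2 and M phase median was 0.092 with 3 of 39 higher, which were Ckap2, Gtse1 and Psrc1, all 3 also p53 targets, and the S phase median was -0.068 with 0 higher. Since the clusters were built on genes that include those of the cell cycle, cluster 1 being led by them, these last values also describe the selection. Among the 12 genes of 50 CPM or more with the highest ratios within clusters, 5 were p53 targets: Mdm2 (64.6 to 189 CPM, 1.55), Bbc3, Gdf15, Trp53inp1 and Phlda3. The others were Car1, Glipr1, Tnfsf9, Fosl1, Klf2, Dusp1 and Dusp5. Cdkn1c did not reach 1.5-fold at -0.29, and Mt4 and Mt3 changed sign to 0.39 and 0.12.

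The same split inside each of the 9 clusters of 100 cells or more, added after the data were seen, gave a positive p53 target median in every one. The medians over the 42 genes ran from 0.38 in clusters 8 and 9 to 0.79 in cluster 2, and 29 to 40 of the 42 ratios were above 0. Cluster 8 had 17 of the 42 higher and 7 lower, clusters 5 and 9 had 2 lower each, clusters 1, 2, 3 and 6 had 1 each, and clusters 4 and 7 had 0. No share over all genes of a cluster stands beside these counts, so they cannot be set against a background. The 42 genes met no CPM minimum inside a cluster, and the groups were small, down to 28 high and 28 low cells in cluster 8. Mdm2 had a ratio above 0 in all 9, from 0.54 (0.10 to 0.99) in cluster 3 to 1.99 (1.80 to 2.18) in cluster 1. In cluster 1 Mdm2 was at 79.6 CPM in its low and 316 CPM in its high cells. Phlda3 ratios lay between 0.79 in cluster 4 and 1.96 in cluster 2. G2 and M phase medians ran from -0.60 in cluster 8 to 0.83 in cluster 7, and the median was 0.071 in cluster 1 itself.

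The knockout library, ranked by the same rule, gave 351 high and 351 low cells of 1405, with 1254 and 126 CPM of Cdkn1a. There 296 of 7786 genes (3.8%) were higher and 217 (2.79%) lower. Of 40 measured p53 targets 24 were higher and 0 lower, with a median of 0.82, and 23 of the 40 genes measured in both libraries were higher in both. Mdm2 went from 69.0 to 174 CPM (1.34), Phlda3 from 183 to 537 CPM (1.55), Gdf15 from 166 to 464 CPM and Bbc3 from 39.3 to 107 CPM. G2 and M phase genes had a median of 1.12 with 27 of 32 higher, which was 0.70 over 29 genes when barcodes found in both matrices were left out. That removed 332 of the 1405 knockout cells, and whether those barcodes carry control cells was not tested. Without them 264 genes (3.44%) were higher and 161 (2.1%) lower, and the p53 target median was 0.82. Cdkn1c ran opposite here too, from 119 to 30.1 CPM (-1.98).

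**Figure D5:**
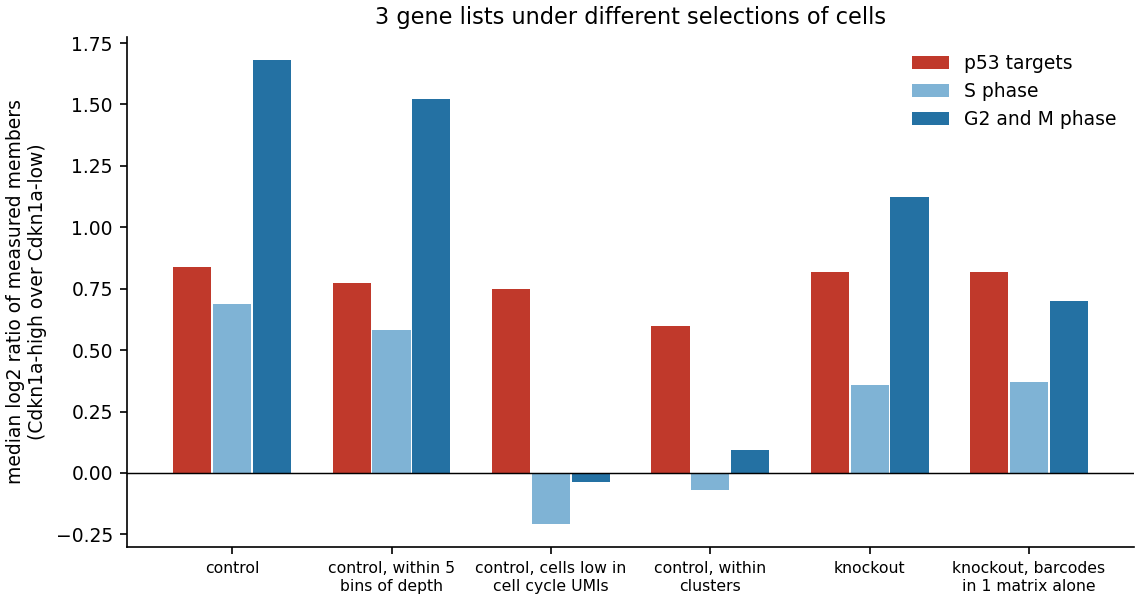
Median log2 ratio of Cdkn1a-high over Cdkn1a-low cells (vertical axis) of the measured p53 targets, S phase and G2 and M phase genes under 4 selections of control cells and 2 of knockout cells (horizontal axis). The p53 target bars stay between 0.60 and 0.84, while the G2 and M phase bar goes from 1.68 in all control cells to -0.036 in the cells low in cell cycle UMIs and 0.092 within clusters.

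Over all genes, 169 of the 433 higher genes of the control were also higher in the knockout (39.0% of the control list and 57.1% of the knockout list), and 3 were lower. Only 335 of the 433, and 255 of the 286 lower genes, were measured in the knockout, and the others count as not shared. Of the 286 lower genes, 82 were lower in both (28.7% and 37.8%). Without the shared barcodes these counts were 131 (30.3% and 49.6%) and 58 (20.3% and 36.0%). The 2 libraries were ranked separately.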

How the data were processed

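Libraries were made with 10x Chromium 3′ chemistry, version 2, per the labels' protocols. The authors deposited UMI counts for each gene and barcode, as whole numbers without normalization. The file headers name Cell Ranger 3.1.0, and the genome was mm10 per the submitters' processing notes. The annotation and the use of strand in counting are not given in the sources used here. Both matrices held 72223578 (control) and 38860718 UMIs (knockout). The minus TAM and plus TAM matrices were matched to the groups by their names.

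The members and gene lists were chosen with earlier results of these data known. UMIs were summed over the cells of a group and scaled to CPM. A ratio has no pseudocount, a group at 0 takes a floor of 3 counts, and genes needed 10 CPM in at least 1 group. Intervals are exact Clopper-Pearson for a share and conditional binomial for a ratio, at 95%, and leave out all error other than counting, since cells are not replicates. The ratio and its interval were tested on simulated sums of counts with known folds. Those sums held counting error alone, with no spread between cells and no ranking by a gene of the same matrix. Cells were clustered with the Leiden method at resolution 0.8, on 15 nearest neighbours in 30 components of 2000 variable genes (scanpy 1.11.5, igraph 0.11.9), with Cdkn1a left out. For shares of cells each cell was thinned to 5000 UMIs. Doublets were kept: Scrublet marked 8 cells (0.314%), too few to have worked, and an alternative removed the 52 highest scores (14 high, 3 low cells). Named genes were the 12 highest and 12 lowest ratios at 50 CPM or more (unnamed predicted genes left out), all p53 targets and CDK inhibitors, up to 4 members of each other list, up to 5 leading genes per cluster and a set of fixed genes. Some of the genes so chosen are not reported here. Other genes named in the text were chosen after their values were seen. Positions are from GENCODE M21, in which 31011 of 31053 identifiers were found, and promoters from RefSeq, where 34 of 42 measured p53 targets, 37 of 44 G2 and M phase and 34 of 44 S phase genes matched. The alternatives include scaling with trimmed mean factors (edgeR 4.0.16) and with median-of-ratios size factors as in DESeq2.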

Additional observations from a re-analysis of the deposited data

Results flagged for a closer look

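Slpi, a secreted protease inhibitor, was higher in Cdkn1a-high cells of the control library (log2 ratio 1.52) and lower in those of the knockout library (-0.70, or -0.86 without barcodes found in both matrices). In the control, 22.6% of high and 10.2% of low cells had a Slpi UMI unthinned. Rsad2, an interferon-induced antiviral gene, had ratios of 0.60 in the control and -0.76 in the knockout (-0.90 without those barcodes), and 5 cells held 63.5% of its UMIs in the high control cells. Both were past 1.5-fold in opposite directions in the 2 libraries, which is what set them apart from the other named genes. With 1 library each, the difference was not tested.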

How the results depend on the processing

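No paired analysis was possible because the 8 records of each group share 1 matrix, whose columns carry no record or replicate number. They were taken as parts of 1 library. No fit without a replicate was run, for the same reason.

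Against 433 higher and 286 lower genes, the top and bottom 10% in place of 25% gave 942 and 733, the top and bottom 50% gave 184 and 66, a 50 CPM minimum 146 and 80, no filter 2445 and 3055, a 2-fold threshold 181 and 82, and high and low cells taken within clusters 131 and 45. Cells taken within 5 bins of depth gave 111 lower genes, and the 1272 cells low in cell cycle UMIs gave 255 higher genes. The p53 target median was 1.13 with 10%, 0.50 with 50% and 0.60 within clusters. The S phase median was 0.98 with 10%, 0.38 with 50%, -0.21 in cells low in cell cycle UMIs and -0.068 within clusters. The G2 and M phase median was 2.99 with 10%, 1.24 with 50%, -0.036 in those cells and 0.092 within clusters, and 0.70 in the knockout without shared barcodes (added after seeing the data). Within bins of depth the squamous median was -0.030 and the Car1 ratio -0.060.

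In the cells low in cell cycle UMIs the ratios were -0.076 for Pcna, -0.81 for Tpx2, -1.18 for Ccna2, -0.14 for Mki67, -0.42 for Cdk1, -0.60 for Pbk, -0.76 for Cdkn2d, -0.12 for Top2a and -0.027 for Ccnb1. Within clusters they were -0.094 for Mki67, 0.39 for Mt4, 0.12 for Mt3, -0.20 for Cdkn3, -0.099 for Pbk, -0.15 for Cdkn2d and -0.21 for Top2a. The cause of these changes was not tested, beyond that those cells were chosen by S, G2 and M phase genes. Over the settings run, 395 of 469 list medians lay within the interval of the main value, 70 outside it, and 4 that had been past 1.5-fold changed sign. A list median has no exact interval, and the limits given to it were the medians of the limits of its members. For the ratios of named genes these numbers were 1104, 391 and 17 of 1512.

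Ranking by 1 gene at these depths places cells with sampling error: a low cell held a median of 3 Cdkn1a UMIs. Genes under 10 CPM were not compared, so Krt20, Lgr5 and Cdkn1b give no direction. At clustering resolutions 0.4 and 1.2, with 4 and 15 clusters, the highest share of high cells in a cluster was 46.8% and 54.9%.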

Other observations

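Immediate early genes and their feedback inhibitors were among the genes that also differed within clusters. Of 17 measured immediate early genes 3 were higher and 1 lower over all control cells (median 0.29), and 7 were higher and 0 lower with high and low cells taken inside clusters (median 0.56, beside 1.7% higher among all genes). Fosl1, an AP-1 subunit, was at 32.6, 42.9, 48.3 and 81.0 CPM over all cells from bin 1 (low) to bin 4 (high) (log2 ratio 1.31, 1.16 to 1.46) and had a ratio of 1.33 within clusters. Dusp1, a phosphatase that switches off MAP kinases, was at 140, 177, 215 and 316 CPM (1.17), with 1.25 within clusters and 0.89 in the knockout. Both overlap a gene on the opposite strand (Ccdc85b and Ergic1). Dusp5, the ERK phosphatase, went from 32.3 to 70.6 CPM.

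Of 17 measured regulators of Cdkn1a 4 were higher, beside 5.56% among all genes: Klf6 (544 to 965 CPM), Klf2 (46.5 to 85.8 CPM), Klf4 and Cebpb (81.3 to 141 CPM). The list of senescence-associated secreted and related genes is not made of genes expected to move 1 way, so its count gives no reading on senescence. Of its 11 measured genes, Gdf15 also a p53 target, 4 were higher and 1 lower, with a median of 0.13. That stood beside 5.56% higher and 3.67% lower among all genes. The higher ones were Plaur, the urokinase receptor gene, at 91.0, 148, 167 and 248 CPM (1.44), Gdf15, the chemokine gene Cxcl1 (223 to 343 CPM) and the lamin gene Lmnb1 (47.8 to 85.1 CPM), and the lower one was the galactosidase gene Glb1 (29.7 to 16.5 CPM). Cldn4, a tight junction gene, rose at every step (1117 to 1743 CPM). Genes of MYC activity and ribosome biogenesis had a median of 0.26 with 0 of 33 past 1.5-fold, and Myc itself went from 115 to 89.8 CPM. Oxidative phosphorylation had 0 of 24 past 1.5-fold in either direction (median -0.10) and glycolysis and hypoxia 0 higher and 2 lower of 22, Pdk1 and Bnip3.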
